A study of Mus musculus with 6 samples.

Results

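The comparison described here set mouse testis against the stromal vascular fraction (SVF) of mouse adipose tissue, the mixed cells left when mature fat cells are removed from fat. It comprised 2 of the 6 two-colour arrays of the series, which carried the same 2 RNAs with the dyes Cy5 and Cy3 exchanged. The other arrays paired each of these tissues with epididymis. The members were chosen by array title alone, and the sign of the array naming SVF first was turned. All 25344 probes were then averaged over both arrays, and the 20924 probes that could be named gave 18545 genes. Both groups were total RNA of mouse tissue, and the labels name no treatment, genotype or allele. Strain, age, the number of animals behind each RNA, and the fat depot were not given in the sources used here.

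Each tissue was represented by 1 RNA sample, so no difference between tissues could be tested and no p-value is given. A ratio is the log2 of testis over SVF, with positive values higher in testis. Values are given for array 1 and array 2 in that order, and a mean ± SD covers n = 2 hybridisations of the same RNAs. This SD holds dye and hybridisation error and leaves out the spread between animals. The Cy5 tissue was taken as the numerator, which the labels do not state, and the logarithm was read as base 2 by convention. The directions given are therefore likely ones, and the folds rest on the base. The counting rule asked for a ratio of at least 1 in size (2-fold), the same way on both arrays. A ratio gives no level in either tissue, and neither spot brightness nor background flags were used here. In bulk RNA, fewer cells of a type and less RNA per cell cannot be told apart.

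Testis makes spermatozoa in seminiferous tubules. Germ cells divide by mitosis and meiosis there and then, as spermatids, build an acrosome for fertilisation, a flagellum and a tightly packed nucleus, supported by Sertoli cells and by the androgen-producing Leydig cells between tubules. Many enzymes of meiotic and later germ cells are encoded by separate gene copies whose widely expressed relatives serve other tissues. SVF holds progenitors of fat cells, fibroblasts, endothelial cells, macrophages and other leukocytes, and it is known for immune, matrix and clotting genes.

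By the 2-fold rule 3838 genes, 20.7% of those measured, were higher in testis and 2962, or 16%, were higher in SVF. At 4-fold on both arrays the numbers were 2245 (12.1%) and 1411 (7.61%). The centre of the range held most genes, with 5631 between -1 and 0 and 4739 between 0 and 1, and the median over all genes was 0.0038. On the testis side the counts fell from 1948 genes between 1 and 2 to 1098, 761, 528 and 201 in the next steps of 1 log2 unit, with 28 genes above 6. On the SVF side they fell faster, from 1919 between -2 and -1 to 938, 466, 205 and 60, with 23 genes below -6. Beyond 16-fold, which is 4 on this scale, there were 757 genes on the testis side and 288 on the SVF side.

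The arrays repeated each other unevenly across this range. The median SD between them was 0.33, and it was larger towards the testis end. It was 0.40 for genes between 3 and 4, 0.71 between 5 and 6 and 0.60 above 6. On the SVF side it showed no such steady rise, at 0.31 between -4 and -3, 0.51 between -6 and -5 and 0.24 below -6. In all, 4030 genes (21.7%) had opposite signs on the 2 arrays, and 196 of these passed 2-fold in opposite directions. The bone morphogenetic protein gene Bmp8a read -4.69 and 5.39, the widest such split with the Cy3 channel higher. The piRNA-binding gene Piwil2 read 7.02 and 0.11, and the fibrinogen gamma chain gene Fgg read 5.06 and -2.12. Neither Bmp8a, Piwil2 nor Fgg was counted in either direction.

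**Figure D1:**
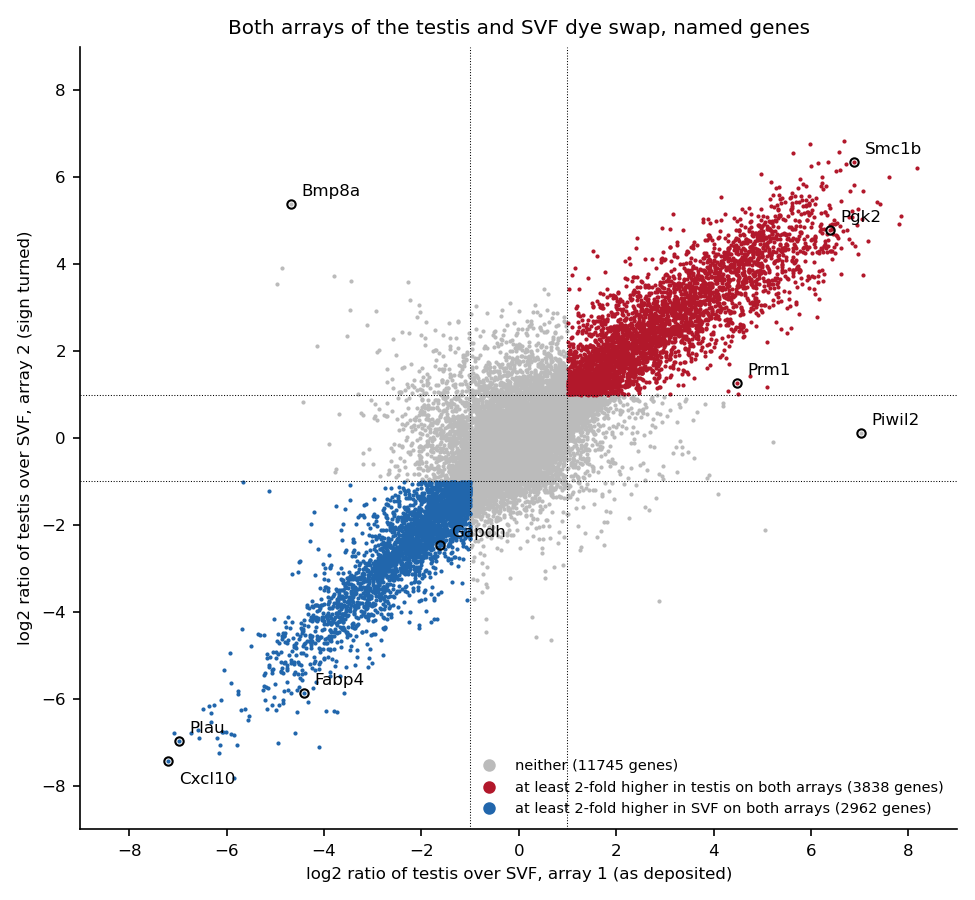
Log2 ratio of testis over SVF on array 1 (x axis) against array 2 with its sign turned (y axis), 1 point per named gene. Red points are the 3838 genes at least 2-fold higher in testis on both arrays, blue points the 2962 higher in SVF, and dotted lines mark 2-fold. Smc1b and Cxcl10 lie at opposite ends, and Bmp8a and Piwil2 lie far from the diagonal.

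Markers of the cell types that each tissue should hold fell on the labelled side for the most part. Of 8 germ cell markers 7 were higher in testis, and the RNA-binding genes Dazl (5.35 and 5.77) and Ddx4 (5.56 and 5.51) were close between arrays. The protamine gene Prm1, which packs sperm DNA, read 4.49 and 1.26, and the synaptonemal complex gene Sycp3 read 0.55 and -1.02 and was not counted. All 4 measured Leydig markers were higher in testis, led by Cyp11a1, the first enzyme of steroid synthesis, at 5.63 and 3.85. Of 8 Sertoli markers 4 were higher in testis, with Tsx at 6.06 and 5.09, while Amh, Sox9, Dhh and Gata1 were not counted. Of 6 progenitor markers 4 were higher in SVF, with the receptor gene Pdgfra at -4.62 and -5.15 and the proteoglycan gene Dcn at -4.99 and -5.07. All 6 measured leukocyte markers were higher in SVF, from Ptprc at -5.54 ± 0.87 to Cd3e at -1.21 ± 0.00. Of 5 endothelial markers 2 were higher in SVF, the receptor gene Tek at -4.14 and -4.21 and the adhesion gene Pecam1 at -1.70 and -1.52, and none was higher in testis.

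Markers of cells that neither label names were also measured. Of 5 adipocyte markers 4 were higher in SVF, namely Cidec (-3.32 and -2.83), Retn (-2.84 and -2.81), Lep (-2.03 and -2.22) and Adipoq (-1.17 and -1.26). Of 5 mesothelial markers 3 were higher in SVF, with the uroplakin gene Upk1b at -5.36 and -4.51. Of 3 B cell markers 2 were higher in SVF, with Ms4a1, the gene of CD20, at -3.11 and -3.89. All 3 erythroid markers were higher in SVF at means from -2.70 to -2.38. The 6 measured markers of the epididymal duct ranged from -1.38 to 1.90, with 1 counted in each direction. The part of these cell types in the differences below was not tested.

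The 25 highest genes in testis, leaving out 10 clone-named genes ranked among them, ran from 7.20 down to 5.77. At the top stood Samt1 of the X chromosome at 8.18 and 6.22, Spata46 at 7.61 and 6.02, and the meiotic cohesin gene Smc1b at 6.89 and 6.36. Genes of the sperm tail and its calcium channel were among the rest, with the CatSper subunit gene Efcab9 at 6.31 and 5.81 and the axonemal gene Iqub at 6.63 and 5.46. The anion transporter gene Slco6c1 read 6.14 and 6.32, and Elovl2, which lengthens polyunsaturated fatty acids, read 5.77 and 5.97. Elovl2 also read a mean of 3.46 for epididymis over SVF and -1.74 for epididymis over testis, so both organs were above SVF. For Smc1b the same means were 1.74 and -4.62.

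The 25 lowest genes ran from -7.32 to -5.98 and included none with a clone name. The interferon-induced chemokine gene Cxcl10 read -7.20 and -7.43, a 159-fold difference. The endothelin receptor gene Ednrb read -6.74 and -6.79, and Lyve1, the hyaluronan receptor of lymphatic vessels and resident macrophages, read -6.16 and -7.25. The matrix enzymes Fap (-6.14 and -7.08), a surface protease of fibroblasts, and Lox (-6.32 and -6.53), which cross-links collagen, stood beside the cytokine gene Il6 (-5.79 and -7.07). Platelet factor 4, Pf4, read -5.56 and -6.48. The Egr2 gene of an immediate early transcription factor differed in how epididymis compared with SVF. It read -6.06 and -6.78 for testis over SVF, and its mean for epididymis over SVF was -0.04.

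**Figure D2:**
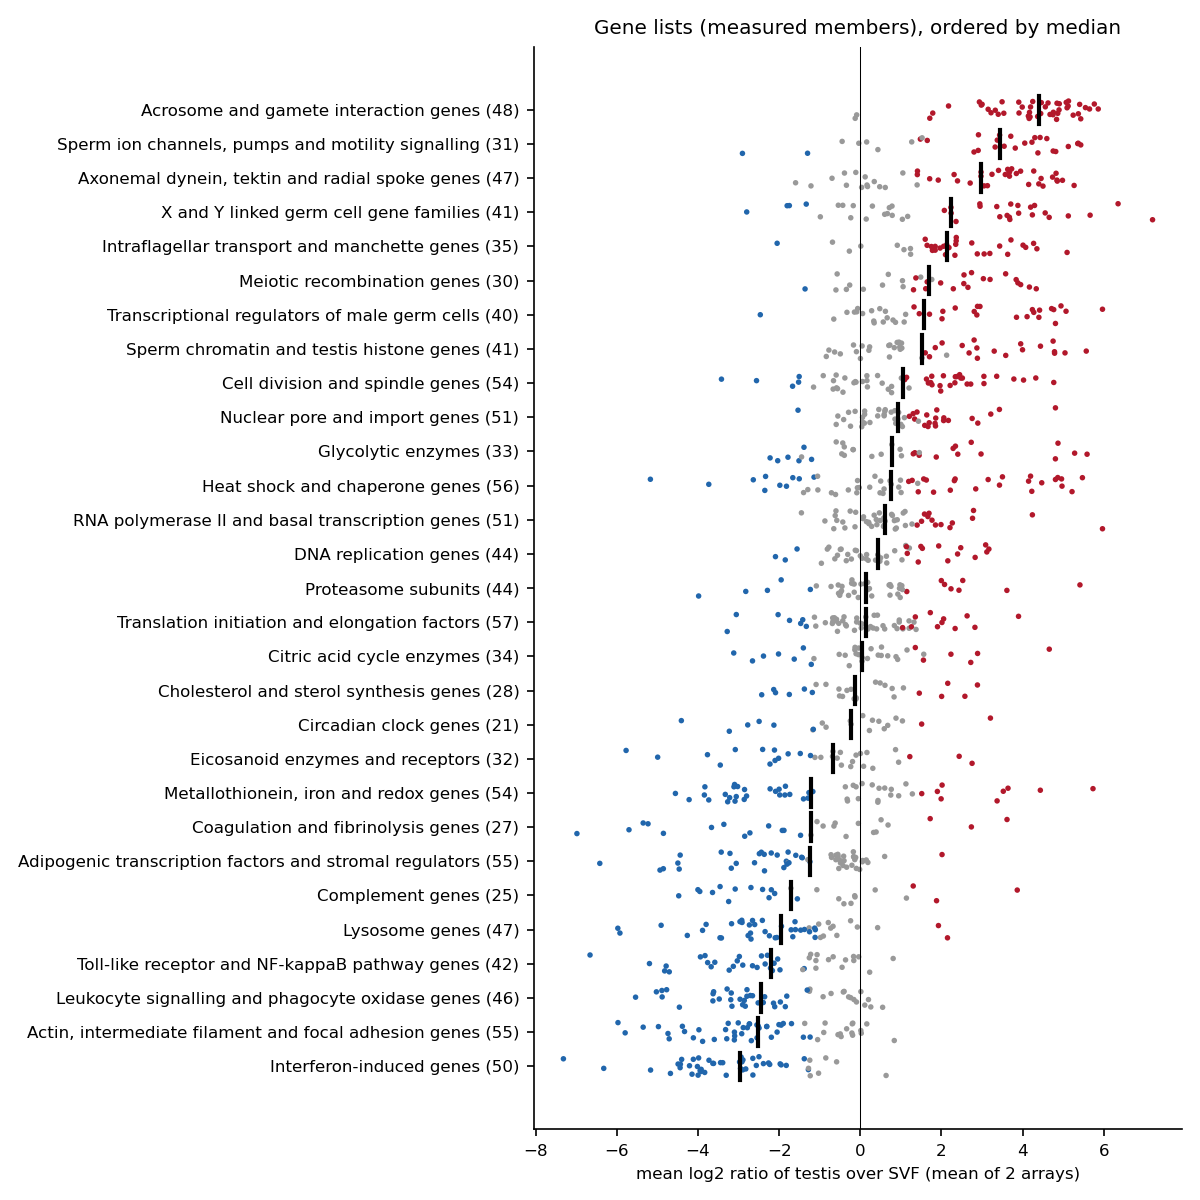
Mean log2 ratio of testis over SVF for each measured member of 29 gene lists (x axis), with lists ordered by median (y axis, number of measured members in brackets). Black bars are medians, red points are counted as higher in testis, blue points as higher in SVF and grey points in neither. Medians run from 4.41 for acrosome genes to -2.96 for interferon-induced genes.

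Among the 29 lists, acrosome genes lay furthest towards testis by median. Most lists were drawn up for testis or for SVF, with earlier results of these data known. For those lists the direction of the counts and medians is no finding. Of 48 acrosome and gamete interaction genes 46 (95.8%) were higher in testis and none in SVF, against 20.7% and 16% of all genes. The median was 4.41 (4.90 and 3.96 on the single arrays). Plcz1, the sperm phospholipase that activates the egg, read 6.37 and 5.36, a 58.2-fold difference. Adam2, a surface protein needed for sperm transport and egg binding, read 5.83 and 5.47. The acrosomal membrane gene Spaca1 read 6.75 and 4.78, with array 1 the higher as for most of this list. Ace and Gopc were the 2 members not counted, at 0.09 and -0.27 and at 0.06 and -0.32. Ace has a separate germ cell transcript, and which transcript its probe reads was not determined.

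Axonemal genes were divided. Of 47 dynein, tektin and radial spoke genes 32 (68.1%) were higher in testis and none in SVF, against 20.7% and 16% of all genes. The median was 2.97. Ropn1l, which belongs to the radial spoke and fibrous sheath, read 6.06 and 4.47. Spag16 of the central apparatus read 5.20 and 4.76, and Tekt2, a filament protein of the doublet wall, read 5.66 and 4.03. Dynein heavy chain genes of the list were found on both sides of the rule. Dnah8 read 5.27 and 3.64, Dnah9 read 5.09 and 1.17 and Dnah6 read 1.69 and 1.13, and all were counted as higher in testis. The other 9 heavy chain genes were not counted. Of these, Dnah5 read -2.45 and -0.74 and Dnah11 read -0.81 and -1.63. Dnah1, Dnah2, Dnah3, Dnah10 and Dnah17, heavy chains of the flagellar motors, ranged in mean from -0.39 to 0.12, and Dnah7a and Dnah12 read means of 0.34 and 0.16. Dnali1, a light intermediate chain gene, read 4.09 and -1.29.

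Transport along the growing tail showed more even values. Of 35 intraflagellar transport and manchette genes 27 (77.1%) were higher in testis, against 20.7% of all genes (median 2.13). The manchette gene Hook1, needed to shape the sperm head, read 5.49 and 4.70, and Bbs5, a subunit of the ciliary BBSome, read 4.94 and 3.76. Ift172 read 3.57 and 4.45. Only Ift27 of this list was higher in SVF, at -2.70 and -1.40.

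Of 31 sperm channel and motility signalling genes 23 (74.2%) were higher in testis, against 20.7% of all genes (median 3.43). Tmem225 read 5.60 and 5.26, the sheath anchor gene Akap4 read 5.72 and 4.54, and the kinase gene Tssk3 read 6.41 and 4.31. Both members higher in SVF are expressed in other tissues as well. Hvcn1, the voltage-gated proton channel known from sperm and from phagocytes and B cells, read -2.05 and -3.76. Prkar2a, a regulatory subunit of protein kinase A, read -1.09 and -1.51.

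Nuclear genes of germ cells gave smaller medians. Of 40 transcriptional regulators 22 (55%) were higher in testis, against 20.7% of all genes (median 1.58). Gtf2a1l, the germ cell form of a subunit of the basal factor TFIIA, read 6.84 and 5.09. The Sox genes Sox6 (5.20 and 4.69) and Sox5 (4.93 and 4.69) were close between arrays. Crem, known as an activator of spermatid genes and also as the source of a short repressor isoform in other cells, was the only member higher in SVF, at -2.21 and -2.72. Which Crem isoform the probe reads was not determined. Of 41 sperm chromatin and histone genes 19 (46.3%) were higher in testis, against 20.7% of all genes (median 1.52). The chromodomain gene Cdyl read 6.20 and 4.93, and H2bl1, a histone variant of spermatids, read 4.85 and 4.72. The protamine gene Prm2 read 3.65 and 0.60 and was not counted. Prm1 (4.49 and 1.26) and the transition protein genes Tnp1 (4.29 and 1.07) and Tnp2 (3.93 and 1.68) were likewise much lower on array 2, though counted. Prm3 was closer between arrays, at 3.58 and 3.02. The cause of the drop on array 2 was not tested.

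Of 30 meiotic recombination genes 18 (60%) were higher in testis, against 20.7% of all genes (median 1.70). Spo11, which makes the meiotic double-strand breaks, read 4.66 and 4.02, and Tex15 read 4.39 and 3.94. Psmc3ip, a partner of the strand exchange proteins, read 3.10 and 4.80. The meiotic strand exchange gene Dmc1 read 0.78 and 2.20 and was not counted, and the helicase gene Helb was higher in SVF at -1.24 and -1.49.

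Cell cycle genes did not move as a block. Of 54 cell division genes 26 (48.1%) passed the rule for testis and 5 (9.26%) for SVF, with a median of 1.05. The shares of all genes were 20.7% and 16%. The spindle checkpoint kinases Ttk (4.97 and 4.57) and Bub1 (4.49 and 3.55) and the meiotic cyclin gene Ccna1 (5.12 and 3.53) were the highest. In SVF stood the phosphatase gene Cdc25b (-3.11 and -3.73), the cyclin gene Ccnd1 of growth factor response (-2.42 and -2.70), and the cell cycle inhibitors Cdkn1c (-1.67 and -1.67) and Cdkn1a (-1.33 and -1.72). The proliferation marker Mki67 read -0.24 and -0.52. Of 44 DNA replication genes 13 passed for testis and 3 for SVF, and the median was 0.43 (0.28 on array 1 and 0.49 on array 2). The shares were 29.5% and 6.82%, against 20.7% and 16% of all genes. Gins1 read 3.55 and 2.79 and the polymerase gene Pole read 3.31 and 2.92, while the licensing gene Cdt1 read -2.05 and -2.13.

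A set of 61 paralogue pairs compared a gene copy known from testis with its widely expressed relative, and both members were measured for 49. Among the 48 different testis members, 39 were higher in testis and none in SVF. Among the 49 widely expressed members, 23 were higher in SVF and 8 in testis. In 18 pairs the members went opposite ways, in 7 both were higher in testis, and in 15 the testis member was higher while its relative was counted in neither. The difference between members, taken within each array, had a median of 4.24, and it was above 0 on both arrays for 46 pairs. The pairs were chosen because 1 member is known from testis, so the direction of this median is no finding.

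Energy metabolism held some of the widest pairs. Pgk2, a glycolytic kinase of sperm, read 6.38 and 4.79, while Pgk1 read -2.07 and -2.38. Gapdhs, the sperm form of the enzyme that acts just before it, read 5.22 and 4.40, while Gapdh read -1.61 and -2.46. In both pairs the members lay on opposite sides on each array. The respiratory chain showed the same order, with Cox7b2 at 6.31 and 4.38 and Cox7b at -2.91 and -3.27. The testis cytochrome c gene Cyct had a mean of 5.60 ± 1.29 and Cycs one of -0.46 ± 0.42. Ldhc and Ldha, of lactate dehydrogenase, were both higher in testis, at 3.86 and 1.60 and at 1.48 and 1.21. They were 2.38 apart on array 1 and 0.40 apart on array 2.

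Structural and housekeeping proteins gave further pairs. Fabp9, a lipid-binding protein of the sperm head, had a mean of 4.70 ± 1.00 and Fabp4, the fatty acid carrier of fat cells and macrophages, one of -5.14 ± 1.04, the widest difference at 9.83. The cohesin genes Smc1b and Smc1a differed by 10.28 on array 1 and 8.76 on array 2, with Smc1a at -3.39 and -2.40. The ribosomal protein gene Rpl39l read 6.22 and 5.87, and Rpl39 read -2.11 and -2.99. Thioredoxin (Txndc2 over Txn1), centrin (Cetn1 over Cetn2) and alpha tubulin (Tuba3a over Tuba1a) differed by 8.28, 6.99 and 6.66. Calcineurin differed less, since Ppp3r2 (5.84 and 5.86) and Ppp3r1 (4.59 and 2.60) were both higher in testis. Whether probes of near-identical copies bind each other's transcripts was not tested.

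A few pairs ran the other way. The TATA-binding protein relative Tbpl1, which spermatids need, read 0.24 and 0.44, while Tbp itself read 2.03 and 2.38. The meiotic kinase gene Aurkc read -0.30 and -0.56 and Aurkb read 1.70 and 0.70. These were the 2 pairs with the widely expressed member higher on both arrays. Utp14b and Utp14a, of ribosomal RNA processing, changed order between the arrays, with differences of -0.60 and 0.93.

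**Figure D3:**
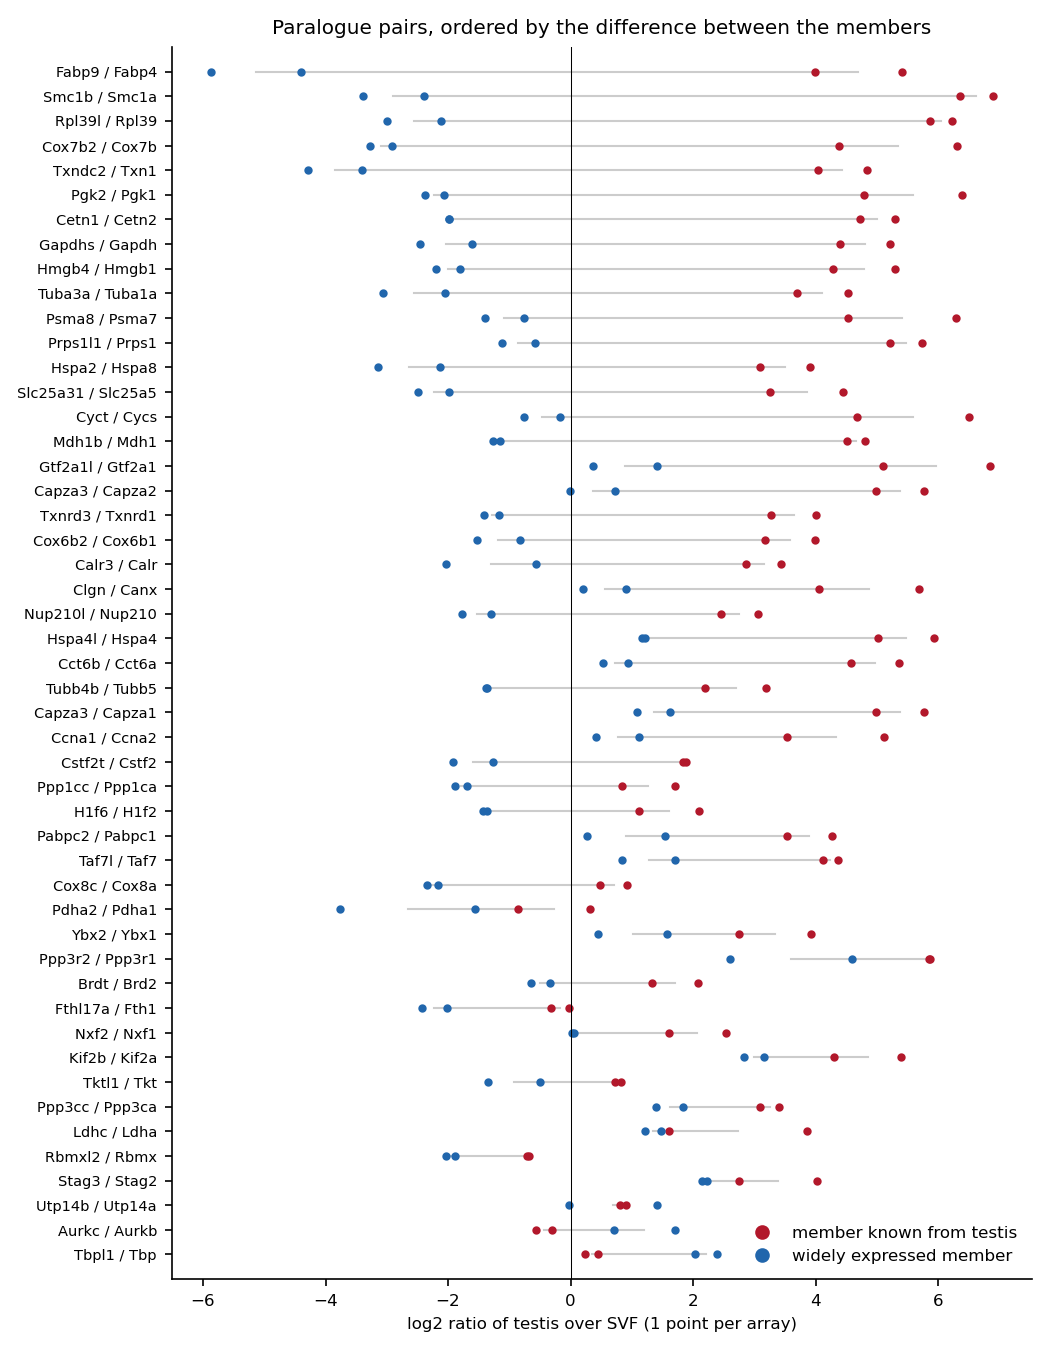
Log2 ratio of testis over SVF (x axis, 1 point per array) for both members of 49 paralogue pairs (y axis), ordered by the difference between members. Red points are the member known from testis and blue points the widely expressed member. Fabp9 and Fabp4 are 9.83 apart, and in Tbpl1 and Tbp the order is turned.

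Core machinery lay near the centre. Of 44 proteasome subunits 8 were higher in testis and 5 in SVF, shares of 18.2% and 11.4% that lie near those of all genes (20.7% and 16%). The extremes were subunits of special proteasomes. Psma8, the alpha subunit of the spermatoproteasome, read 6.29 and 4.53, and the immunoproteasome subunits Psmb8 (-3.61 and -4.36), Psmb9 (-2.71 and -2.93) and Psmb10 (-1.71 and -2.19) were higher in SVF with their activator Psme1. Of 57 translation factors 11 (19.3%) passed the rule for testis and 7 (12.3%) for SVF, again near the shares of all genes. Their median was 0.14. The cap-complex gene Eif4g3 read 3.27 and 2.38, and the interferon-induced kinase Eif2ak2 read -3.14 and -3.42. Eif5a read 0.34 and 0.34.

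Of 34 citric acid cycle genes 6 stood higher in testis and 7 in SVF, shares of 17.6% and 20.6% that lie near those of all genes. The median had opposite signs on the single arrays (0.37 and -0.06). Mdh1b read 4.51 and 4.80, the malic enzyme gene Me1 read 2.84 and 2.94, and mitochondrial isocitrate dehydrogenase, Idh2, read -3.02 and -3.22. Of 33 glycolytic genes 13 (39.4%) stood higher in testis and 6 (18.2%) in SVF, against 20.7% and 16% of all genes. The SVF share thus lay near that of all genes. Slc16a7, a monocarboxylate carrier, read 5.32 and 5.24, and Pgam2 read 5.24 and 4.51. The hexokinase gene Hk2 read -1.71 and -1.85, and the insulin-responsive glucose carrier Slc2a4 read -1.47 and -1.31.

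Transcription and nuclear transport genes had few members on the SVF side. Of 51 genes of RNA polymerase II and the basal factors 14 were higher in testis and none in SVF (median 0.61). The testis share, 27.5%, compares with 20.7% of all genes, and 16% of all genes were higher in SVF. Taf7l read 4.12 and 4.36, Taf9 read 3.06 and 2.52, and Gtf2e2 read 2.92 and 2.61. Of 51 nuclear pore and import genes 20 passed the rule for testis and 1 for SVF, with a median of 0.92, and the 20 are 39.2% of the list. The basket protein gene Nup153 read 4.97 and 4.65 and the importin gene Kpna2 read 3.72 and 3.13, while Nup210 read -1.77 and -1.30 against 2.46 and 3.06 for its testis relative Nup210l.

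Chaperone genes were spread over the whole range. Of 56 measured, 23 passed the rule for testis and 10 for SVF, with a median of 0.75. These are 41.1% and 17.9% of the list, against 20.7% and 16% of all genes. Hspa4l read 5.92 and 5.02, Dnajb3 read 5.62 and 4.81 and the chaperonin subunit gene Cct6b read 5.36 and 4.58. The stress-inducible Hspa1b read -5.04 and -5.31, and the small heat shock gene Cryab read -3.50 and -3.96. Hspa8, the constitutive form, read -2.13 and -3.15.

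Redox genes also had members at both ends. Of 54 metallothionein, iron and redox genes 9 passed the rule for testis and 28 for SVF, with a median of -1.21. These are 16.7% and 51.9% of the list, against 20.7% and 16% of all genes. The sperm thioredoxin Txndc8 read 6.59 and 4.87, and the haem oxygenases were on opposite sides, with Hmox2 at 3.52 and 3.53 and the inducible Hmox1 at -4.25 and -4.19. The transferrin gene Trf read -4.40 and -4.72. Of 28 cholesterol synthesis and transport genes 5 passed the rule for testis and 6 for SVF, with a median of -0.14 (-0.09 and -0.22 on the single arrays). Those shares, 17.9% and 21.4%, lie near those of all genes. The enzymes Cyp51 (3.20 and 2.57) and Sqle (2.79 and 2.36) were higher in testis, and the efflux carriers Abcg1 (-2.47 and -2.39) and Abca1 (-1.60 and -1.90) were higher in SVF.

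Interferon-induced genes lay furthest towards SVF among the 29 lists by median, the marker sets aside. Of 50 measured, 43 were higher in SVF and none in testis, against 16% of all genes in that direction, and the median was -2.96 (-2.83 and -3.47 on the single arrays). Ifi205 read -6.31 and -6.33, and the GTPases Gbp2 (-5.12 and -5.21) and Irgm1 (-4.82 and -4.54) followed. The antiviral gene Mx2, at -1.50 and -0.99, lay just outside the rule. Isg20 read 0.85 and 0.42.

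Toll-like receptor and NF-kappaB genes followed the same side. Of 42 measured, 27 (64.3%) were higher in SVF and none in testis (median -2.19). The shares of all genes were 16% and 20.7%. Nfkbiz, an inducible nuclear regulator of the pathway, read -6.59 and -6.73, and the kinase gene Map3k8 read -4.33 and -6.06. The receptor genes Tlr7 (-4.97 and -4.67) and Cd14 (-4.58 and -4.99) are best known from macrophages. Rela, the main activating subunit, read -0.70 and -0.20 and was not counted, and Nfkb2 read -3.68 and -3.67.

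Of 46 leukocyte signalling and phagocyte oxidase genes 31 (67.4%) were higher in SVF and none in testis (median -2.45). The shares of all genes were 16% and 20.7%. Ptprc, which encodes CD45, read -4.93 and -6.15, and the tetraspanin gene Cd53 read -4.76 and -5.29. Plek, a substrate of protein kinase C in platelets and leukocytes, read -4.68 and -5.10. Not all blood cell genes took part, since Ikzf1 read -0.18 and -0.01 and Runx3 read 0.06 and 0.35. Of 47 lysosome genes 34 (72.3%) were higher in SVF and 2 (4.26%) in testis, against the same shares of all genes (median -1.94). The cathepsins Ctss (-5.61 and -6.23) and Ctsc (-4.94 and -7.01) were the lowest. The 2 on the testis side were Arsa, the sulfatase for seminolipid and sulfatide, at 2.35 and 1.95, and Ppt1 at 2.09 and 1.76.

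Complement and clotting genes were mixed. Of 25 complement genes 13 (52%) passed the rule for SVF and 3 (12%) for testis, against 16% and 20.7% of all genes. The median was -1.71 (-1.26 on array 1 and -2.20 on array 2). C1ra (-4.26 and -4.69) and C1qc (-3.60 and -4.41), of the first component, were lowest. Cd46, in mice a protein of the inner acrosomal membrane, read 3.45 and 4.29. Of 27 coagulation genes 13 (48.1%) were higher in SVF and 3 (11.1%) in testis. The urokinase gene Plau read -6.98 and -6.98 and the protein C receptor gene Procr read -5.16 and -6.24. Clotting factor gene F5 was on the other side at 3.49 and 3.74.

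The cytoskeleton of adherent cells was high in SVF. Of 55 actin, intermediate filament and focal adhesion genes 39 (70.9%) were higher in SVF and none in testis (median -2.52). The shares of all genes were 16% and 20.7%. The membrane-binding annexins Anxa1 (-5.54 and -6.40), Anxa3 (-5.76 and -5.83) and Anxa5 (-5.24 and -5.46) led, and the caveolin gene Cav1 read -4.77 and -4.71. The beta-actin gene Actb was spotted 305 times. Its spots had a median of -2.02 (SD 0.27 over spots) on array 1 and -2.63 (SD 0.31) on array 2. Gapdh, spotted 257 times, gave medians of -1.67 (SD 0.39) and -2.45 (SD 0.34). Both genes are common references, and both were higher in SVF, with array 2 the larger by more than the SD over spots.

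Of 55 adipogenic transcription factors and stromal regulators 26 (47.3%) were higher in SVF and 1 (1.82%) in testis, against 16% and 20.7% of all genes. The median was -1.24, and -0.65 by the loop estimate over all 6 arrays. The early adipogenic factors Cebpb (-4.71 and -4.99) and Cebpd (-4.08 and -4.91) and the orphan receptor Nr4a1 (-4.69 and -5.19) were low. The later factors differed, as Pparg read -0.60 and -0.38 and Cebpa read 1.79 and -1.68, and neither was counted. Klf5 was higher in testis at 2.52 and 1.51. Of 32 eicosanoid genes 13 (40.6%) were higher in SVF and 3 (9.38%) in testis, against 16% and 20.7% of all genes. The median was -0.68 (-0.66 on array 1 and -1.04 on array 2). Ptgs2, the inducible cyclooxygenase, read -5.90 and -5.64, and Ptgds, which makes prostaglandin D2 in testis and brain, read 2.54 and 2.97.

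Of 21 circadian clock genes 6 (28.6%) were higher in SVF and 2 (9.52%) in testis, against 16% and 20.7% of all genes. The median was -0.23, with -0.46 on array 1 and -0.15 on array 2. The paralogous repressors Bhlhe40 and Bhlhe41 stood on opposite sides, at -4.42 and -4.40 and at 3.98 and 2.43. The output factors Dbp (-2.53 and -3.02) and Nfil3 (-3.35 and -3.11) were higher in SVF. The core genes Arntl (-0.20 and -0.26), Clock (-0.64 and -1.23), Per1 (0.62 and 0.56) and Cry2 (0.15 and 0.30) were not counted.

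Genes were also set out by chromosome. Of 617 X-linked genes 102 (16.5%) passed the rule for testis and 142 (23.0%) for SVF, against 20.9% and 15.7% of 17674 autosomal genes. The X median was -0.29 (-0.32 and -0.30 on the single arrays), and medians of single autosomes ran from -0.06 to 0.16. The share higher in SVF was also outside the range of single autosomes, 13.2% to 19.1%. At 4-fold the X share in testis was 12.3% and the autosomal share 12.1%, so the lower share in testis was not seen among the larger differences. In SVF the 4-fold shares were 10.4% and 7.53%.

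Germ cell families supplied several of the X-linked genes highest in testis. Of 41 X- and Y-linked germ cell family genes 23 (56.1%) passed the rule for testis and 4 (9.76%) for SVF, with a median of 2.24. The shares of all genes were 20.7% and 16%. Cypt15 read 6.34 and 6.36, Mageb5 read 5.96 and 5.36, and Ott read 4.61 and 4.70. X-linked genes at the other end included the purinergic receptor P2ry10 (-6.11 and -6.03), the polyamine enzyme Sat1 (-5.18 and -5.05) and the ribosomal protein gene Rps4x (-3.46 and -4.53). Of 13 Y-linked genes 6 (46.2%) were higher in testis, against 20.9% of autosomal genes. Among the 6 were Zfy1 (2.78 and 3.12) and Uba1y (3.72 and 3.15). The histone demethylase gene Kdm5d was higher in SVF at -3.61 and -1.98. Sry read 0.52 and 0.25.

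Some differences ran along neighbouring genes. Among measured genes in chromosome order, runs of 5 or more counted the same way numbered 16 for testis and 7 for SVF. More genes were counted for testis (20.7%) than for SVF (16%). Whether these runs outnumber those of a shuffled gene order was not tested. The longest SVF run held 10 genes of the major histocompatibility complex on chromosome 17, from H2-DMa to H2-Eb1, with means from -4.61 to -1.28. It includes class II genes and the peptide processing genes Tap1, Tap2, Psmb8 and Psmb9. A run of 9 genes on chromosome 19 held Acta2, Fas, Ch25h, Lipa and the interferon-induced Ifit genes, from -3.95 to -2.05. A run of 6 on chromosome 6 was mostly of the killer lectin receptors Klra2 to Klra9, and shared signal between these near-identical copies was not tested. The longest testis run held 6 genes on chromosome 2, Agbl2, Mtch2, C1qtnf4, Ndufs3, Kbtbd4 and Ptpmt1, from 1.84 to 2.75.

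Clone-named genes from the RIKEN collections made up 9.26% of all genes measured. The tissue libraries that gave these clones were not considered here, and they may shape the shares below. Of 1718 such genes 722 (42.0%) passed the rule for testis and 65 (3.78%) for SVF, against 20.7% and 16% of all genes, and they made up 18.8% of all genes higher in testis and 2.19% of those higher in SVF.

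Promoter windows of 300 bases, from 250 before to 50 after the start of a gene in RefSeq (GRCm38.p6), were matched by gene ID for 14738 genes. The CpG ratio, the observed number of CG steps over that expected from base composition, had a median of 0.64. It was highest for genes moderately higher in testis, at 0.75 between 1 and 2, and was 0.69 between -2 and -1. It was low at both ends, at 0.38 between 4 and 5 and 0.38 between -5 and -4. The TATA box (TATAAA, both strands) was in 30.2% of the 43 windows between -6 and -5 and in 10.1% of the 159 windows between 5 and 6, against 11.7% of all 14738. The outermost steps held only 14 and 23 windows.

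**Figure D4:**
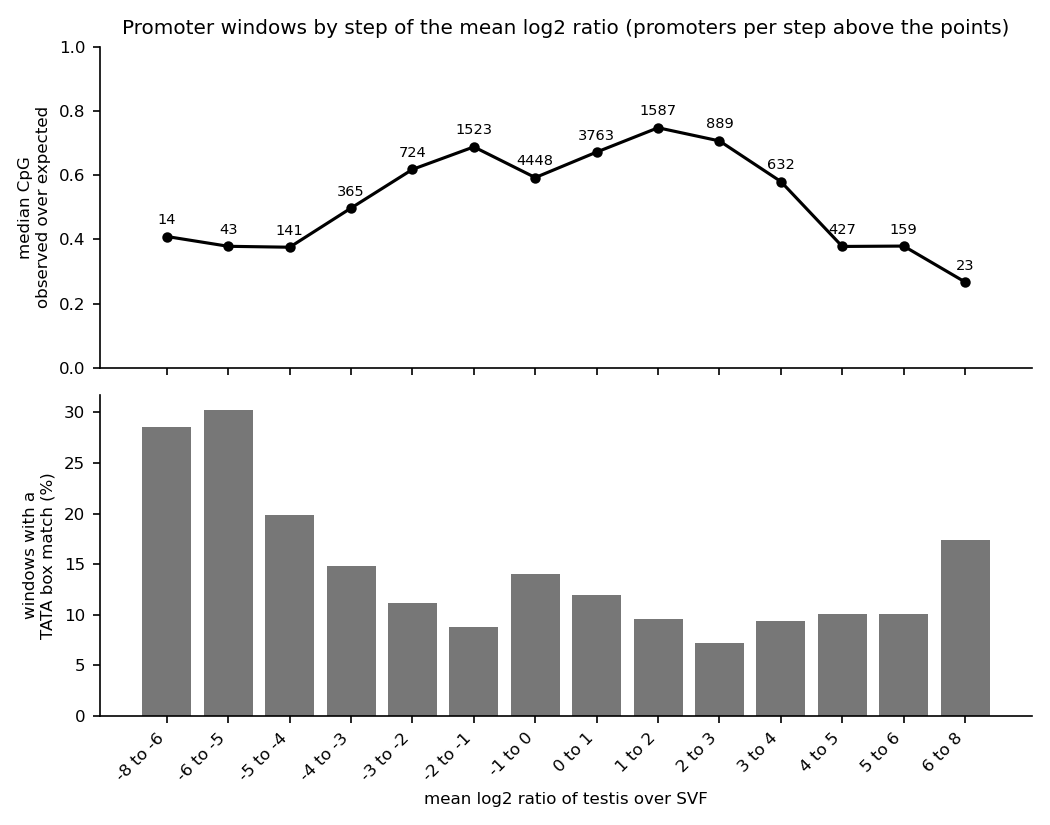
Upper panel: median CpG ratio of promoter windows (y axis) by step of the mean log2 ratio of testis over SVF (x axis), with the number of windows above each point. Lower panel: percent of windows with a TATA box match. The CpG ratio is 0.75 between 1 and 2 and 0.38 between 4 and 5, and TATA box matches reach 30.2% on the SVF side.

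Motifs were searched on both strands, and a match is a description of letters, not a binding site. The X-box, which the RFX factors of ciliary genes read, was in 1.31% of windows of genes higher in testis (41 of 3129), 0.0875% of those higher in SVF (2 of 2287) and 0.46% of the rest. No X-box match was found in the 42 windows of the axonemal list or the 31 of the intraflagellar transport and manchette list. Rfx2, an RFX factor of spermatids, itself read 2.06 and 2.00. The MYB letters CAACNG were in 40.8%, 29.3% and 32.8% in the same order, and in 28 of 42 windows (66.7%) of the axonemal list. The cyclic AMP response element TGACGTCA was in 3.52%, 2.27% and 2.34%. It overlaps its own shorter core TGACG, which was in 28.6% and 26.1% of the windows of genes higher in testis and in SVF. Of all genes with a window, 0.58% held the X-box, 33.9% the MYB letters and 2.58% the full cyclic AMP element. Of all 32851 windows of the table, the shares were 0.56%, 35.0% and 1.79%.

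On the SVF side the core of the interferon-stimulated response element was in 5.03% of windows of genes higher in SVF and 2.40% of those higher in testis. Of 39 windows of the interferon list 20 (51.3%) held it, against 3.11% of all genes with a window and 3.44% of the whole table. The kappaB site was in 2.23% and 1.28%, against 1.49% of all genes with a window and 1.63% of the table. It was in 7 of 33 windows (21.2%) of the Toll-like receptor and NF-kappaB list. Both lists were chosen by known regulation or pathway, so their motif shares are no finding about testis against SVF. The CArG box of serum response factor was in 2.40% and 1.09%, against 1.36% of all genes with a window and 1.63% of the table. In the same order, the AP-1 letters TGANTCA were in 7.91% and 6.07%, against 7.05% and 7.81%. The GC box GGGCGG was in 58.6% and 47.7%, against 50.9% and 35.7%. The E-box CACGTG was in 9.27% and 9.49%, against 8.73% and 7.15%. No overlap between these motifs was removed.

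**Figure D5:**
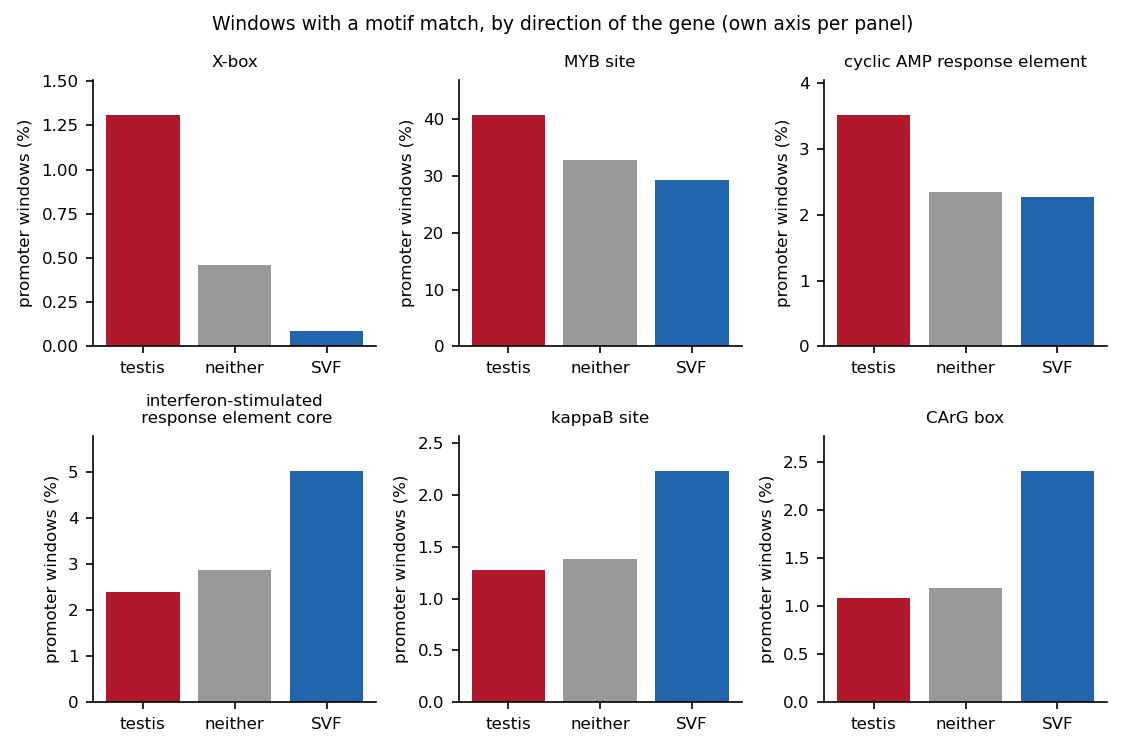
Percent of promoter windows with a match (y axis, own scale per panel, starting at 0) among genes higher in testis, in neither and higher in SVF (x axis) for 6 motifs. The X-box is in 1.31% of windows on the testis side and 0.0875% on the SVF side, and the interferon-stimulated response element core is in 2.40% and 5.03%.

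For each motif the genes with the largest ratio among those with a match were chosen, after their values were seen, to show the letters behind the testis counts. The stretches are 80 bases of RefSeq sequence (GRCm38.p6), 5′ to 3′ on the strand of the gene, with the match in capitals.
Iqcf3: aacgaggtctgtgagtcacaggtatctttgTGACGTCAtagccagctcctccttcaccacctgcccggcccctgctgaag
Fam71e1: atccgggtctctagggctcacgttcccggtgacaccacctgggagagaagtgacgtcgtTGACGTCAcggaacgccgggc
Pacrgl: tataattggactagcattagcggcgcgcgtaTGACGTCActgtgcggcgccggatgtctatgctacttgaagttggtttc
Ttc23l: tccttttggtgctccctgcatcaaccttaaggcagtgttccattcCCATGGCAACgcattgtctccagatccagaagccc
The first 3 hold the full cyclic AMP response element and the last the X-box on the other strand. Iqcf3, from chr9:106561628-106561707 (minus strand), has its match 51 to 44 bases before the start and read 6.19 and 4.89. Fam71e1, from chr7:44496515-44496594 (plus strand), has it 21 to 14 bases before the start and read 5.79 and 4.74. Pacrgl, from chr5:48372312-48372391 (plus strand), has it 49 to 42 bases before the start and read 4.75 and 4.96. All of these lie within the promoter window, upstream of the annotated start. Ttc23l, from chr15:10558670-10558749 (minus strand), has its match 35 to 26 bases before the start and read 6.90 and 4.41, the widest split of the set.

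The SVF side is shown by members of the interferon and NF-kappaB lists with the largest ratio among those with a match, and by Zfp36 for the CArG box, in the same form.
Cxcl10: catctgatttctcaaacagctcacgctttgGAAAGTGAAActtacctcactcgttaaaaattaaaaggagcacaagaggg
Ifi205: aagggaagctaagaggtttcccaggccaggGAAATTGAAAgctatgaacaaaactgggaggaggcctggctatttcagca
Tnfaip3: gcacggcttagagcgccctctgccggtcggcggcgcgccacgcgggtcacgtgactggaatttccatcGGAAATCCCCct
Nfkb2: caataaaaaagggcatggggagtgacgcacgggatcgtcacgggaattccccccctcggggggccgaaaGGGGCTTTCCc
Zfp36: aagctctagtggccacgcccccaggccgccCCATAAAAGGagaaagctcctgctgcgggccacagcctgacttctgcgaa
In Cxcl10 and Ifi205 the capitals mark the interferon-stimulated response element core, read on the other strand. Cxcl10, from chr5:92349053-92349132 (minus strand), has it 213 to 204 bases before the start, and Ifi205, from chr1:174031840-174031919 (minus strand), has it 134 to 125 bases before the start. Both genes were over 6 log2 units higher in SVF on each array. In Tnfaip3 and Nfkb2, an inhibitor and a subunit of NF-kappaB, the capitals mark the kappaB site match. Tnfaip3, from chr10:19015411-19015490 (minus strand), has its match 12 to 3 bases before the start and read -3.67 and -4.21. Nfkb2, from chr19:46304657-46304736 (plus strand), has it 11 to 2 bases before the start and read -3.68 and -3.67. The early response gene Zfp36, which destabilises cytokine transcripts, comes from chr7:28379237-28379316 (minus strand), has its CArG box 58 to 49 bases before the start and read -3.88 and -4.65.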

How the data were processed

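Total RNA of testis and of adipose SVF was compared on 2 two-colour arrays with exchanged dyes. The deposited values are 1 log ratio per probe and array, read here as log2, and nothing was missing. For the logarithm base, the background correction, the scaling and the ratio's direction, the labels and the table state nothing. As deposited, the array medians were 0.0053 and 0.044, and the arrays correlated at r = -0.86 across all probes, so the array naming SVF first had its sign turned. Across named genes r was then 0.88 and Spearman's rho 0.81. Genes are not independent replicates in these correlations. The number of arrays limits the precision.

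Probes were named from the platform annotation, updated to GRCm38.p6 symbols. Of 21112 annotated probes, 20456 matched by gene ID and 220 by symbol, 248 kept the annotated name, and 158 of non-mouse symbol and 30 of several genes were left out. A gene's value is the mean over its probes. Of 1624 genes with 2 to 7 probes, 48 had probes passing the rule in opposite directions, Ggps1 and Tln1 among the list members. No array coordinates are printed, since the annotation names no build.

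The lists, pairs, markers and rules were chosen with earlier results of these data known. Most lists were drawn up for testis or for SVF, so their counts describe the members and do not test a direction. Named were measured pairs, up to 4 called members per list and direction and up to 2 against its median, list members with the smallest SD in each log2 step, the 25 extreme genes each way without clone names, genes of the 3 longest neighbour runs each way, the 6 largest dye effects of each sign, and up to 4 genes beside the rule on each side. Other names, such as uncalled list members, further markers and X- or Y-linked genes, were chosen after their values were seen. Software was pandas 2.3.3 and numpy 2.4.6 under Python 3.11.15. The rule was tested on simulated data. Protein sequences and lengths were not analysed here.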

Additional observations from a re-analysis of the deposited data

How the results depend on the processing

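At 4-fold on both arrays the counts were 2245 higher in testis and 1411 higher in SVF. Every other alternative kept both counts within 1.5 times of 3838 and 2962: median centring (3892 and 2926), a least-squares estimate over the loop of all 6 arrays (4485 and 3522), 2-fold on the mean alone (4564 and 3611), the median over probes (3832 and 2961), genes with 1 probe (3603 and 2748) and natural logarithms (4645 and 3781). With 1 array left out the counts ranged from 4814 to 4876 and from 3969 to 4019. In that setting and in the loop estimate the rule rested on 1 value per gene, not on both arrays. The like counts for the loop estimate are therefore those on the mean alone (4564 and 3611). The loop estimate shared 3805 and 2910 genes with the original calls. No named gene or pair that passed the rule changed direction under the loop estimate or the median over probes. The other settings could not have turned a sign, since the rule asks for 2-fold the same way on both arrays. Sizes did move by more than the spread between the arrays. The loop estimate moved 92 of 357 named ratios, 11 of 49 pair differences and 10 of 40 list medians, and centring moved 36 of the named ratios. Single probes moved 10 medians, and 16 and 8 moved with array 1 and with array 2 left out. Natural logarithms enlarge every value. No paired analysis was possible because each tissue has 1 RNA sample. Genes measured on all 6 arrays were the same genes, since no value was missing. The planned comparison by protein length was not run. Spot brightness was not used here, so a signal near background may make a ratio too small or too large.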

Other observations

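The 4232 probes without an annotation row also differed between the RNAs. Of these, 655 (15.5%) were at least 2-fold higher in testis on both arrays and 342 (8.08%) were higher in SVF. They are not named here and enter no count of genes.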
